A study of Mus musculus with 8 samples.

Results

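The platelet-derived growth factor (PDGF) ligands Pdgfa, Pdgfb, Pdgfc and Pdgfd, their receptors Pdgfra and Pdgfrb, and Rgs5 and Des, a pair of genes used as markers of pericytes, were examined by RNA sequencing in mice whose DMP1 protein cannot carry its glycosaminoglycan chain. The 8 genes were chosen by symbol, matched to 1 Ensembl identifier each, and found in both deposited tables, of 47729 genes for the neural stem cells (NSCs) and 40562 genes for the astrocytes. WT and S89G-DMP1 mice were compared, all C57BL/6. By the labels every mouse was 10 weeks old, whereas the study's methods give the mice used for astrocyte culture in months. In S89G-DMP1, the serine of DMP1 that carries the chain is replaced by glycine in the gene itself, through homologous recombination in embryonic stem cells, so every cell of the animal carries the change and no cell type is targeted. NSCs were grown as neurospheres from the subventricular zone, in serum-free medium, with 3 libraries per genotype. Astrocytes were primary cultures of cortex in medium with serum, with 1 library per genotype. None of the sources used here says whether the 3 NSC libraries of a genotype came from separate cultures or animals, so p-values measure only the spread between libraries, which may be technical. Between NSC libraries of 1 genotype the chi-square per gene was 1.07 to 1.51, where counting error alone gives about 1. Between libraries of different genotype it was 3.17 to 4.06. Whether the libraries of a genotype are technical replicates was not tested.

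PDGFs are secreted as dimers that bind receptor tyrosine kinases. PDGF-A and PDGF-C signal mainly through PDGFRα, which marks oligodendrocyte precursors in the brain and fibroblasts at its surfaces. PDGF-B, made by endothelial cells, recruits pericytes that carry PDGFRβ, and PDGF-D also binds PDGFRβ. PDGF-C and PDGF-D are made as latent proteins whose CUB domain has to be cut off outside the cell. Rgs5 is a GTPase-activating protein that damps G protein signaling and is high in brain pericytes, and Des encodes desmin, the intermediate filament of muscle and mural cells.

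The series held between 2354615 and 2588130 counted reads per NSC library, and 14008670 (WT) and 13016924 (S89G-DMP1) in the astrocyte libraries. Dmp1 itself is expressed from the edited allele, so its level does not check the genotype. It was counted at 18, 21 and 16 in WT NSCs, 6, 3 and 5 in S89G-DMP1 NSCs, 2 in WT astrocytes and 119 in S89G-DMP1 astrocytes. NSC libraries carried the progenitor markers Sox2 (747 to 890 counts) and Nes (4572 to 5460 counts). The WT astrocyte library went against its label, because the astrocyte markers Gfap and Aqp4 had only 90 and 8 counts and Sox2 30 counts, beside 27329 counts of the collagen gene Col1a1. The S89G-DMP1 astrocyte library had 901 counts of Gfap, 4051 of Aqp4, 2705 of Sox2 and 22501 of Col1a1. Each astrocyte result below rests on these libraries, and no astrocyte result can be given without them. The other pericyte markers were divided. Kcnj8 and Higd1b, which define brain pericytes, were at 0 in both astrocyte libraries, and Abcc9, Vtn, Cox4i2 and Atp13a5 had at most 12 counts in either. Others on the list, which are less particular to pericytes, were well counted in WT astrocytes, among them Tbx18 (1950 counts), Foxf2 (1579 counts), Mcam (1422 counts), Notch3 (657 counts) and Cspg4 (542 counts).

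To show the regulatory sequence in front of the genes that the comparisons turn on, the 250 bases upstream of the RefSeq transcript start (GRCm38.p6, plus strand) are printed for Pdgfra (chr5:75152001-75152250), Rgs5 (chr1:169655251-169655500) and Des (chr1:75360042-75360291), which were lower together in S89G-DMP1 astrocytes, and for Pdgfc (chr3:81036166-81036415), which was lower in S89G-DMP1 NSCs. Capitals mark each match, on either strand, to the E-box CANNTG, the GC box GGGCGG, the TATA box TATAAA, the CCAAT box CCAAT and the CArG box, the site of serum response factor.
Pdgfra: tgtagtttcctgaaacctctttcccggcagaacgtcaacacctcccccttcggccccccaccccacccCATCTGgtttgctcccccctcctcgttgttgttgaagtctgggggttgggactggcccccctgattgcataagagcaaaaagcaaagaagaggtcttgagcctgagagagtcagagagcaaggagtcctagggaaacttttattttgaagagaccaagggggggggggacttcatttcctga
Rgs5: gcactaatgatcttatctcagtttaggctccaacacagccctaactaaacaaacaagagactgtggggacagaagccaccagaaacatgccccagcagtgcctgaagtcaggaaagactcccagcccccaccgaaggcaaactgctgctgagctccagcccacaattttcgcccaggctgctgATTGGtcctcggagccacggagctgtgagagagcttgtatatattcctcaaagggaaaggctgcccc
Des: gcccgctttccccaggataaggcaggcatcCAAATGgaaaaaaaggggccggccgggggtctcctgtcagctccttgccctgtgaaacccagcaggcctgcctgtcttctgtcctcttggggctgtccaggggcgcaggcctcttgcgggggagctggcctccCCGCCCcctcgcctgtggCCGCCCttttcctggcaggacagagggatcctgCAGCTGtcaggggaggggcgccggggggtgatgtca
Pdgfc: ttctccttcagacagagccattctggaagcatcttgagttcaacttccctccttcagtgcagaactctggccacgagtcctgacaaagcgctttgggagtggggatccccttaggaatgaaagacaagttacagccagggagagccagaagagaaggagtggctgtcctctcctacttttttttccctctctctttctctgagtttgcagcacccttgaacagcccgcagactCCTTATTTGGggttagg
Pdgfra held 1 E-box, 182 bases upstream. Rgs5 held 1 CCAAT box, 67 bases upstream. Des held E-boxes 220 and 36 bases upstream and GC boxes 87 and 69 bases upstream. Pdgfc held a CArG box 17 bases upstream, a motif found in 1.47% of all 32851 mouse promoters in the table. E-boxes were present in 66.2%, CCAAT boxes in 33.8%, GC boxes in 32.7% and TATA boxes in 12.4% of these promoters. Des had a G and C content of 67.2%, Pdgfra of 54.4%, Rgs5 of 53.6% and Pdgfc of 50.8%, beside a median of 52.4%. No motif searched was shared by Pdgfra, Rgs5 and Des, and a match is a description of letters only. Of the 8 genes, 6 had a printable entry. Pdgfa, with 2 starts, held GC boxes, Pdgfd held 1 TATA box 160 bases upstream, and Pdgfb and Pdgfrb are not printed.

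Levels of different genes were compared per length, as RPKM (reads per 1000 bases of merged exons and per 1000000 reads), after scaling of the libraries by the trimmed mean of M values (TMM). In WT NSCs, Pdgfa (ENSMUSG00000025856, chr5:138976014-138997370, minus strand) was highest at 5.16 ± 0.455 RPKM (SD, n = 3). Pdgfc (ENSMUSG00000028019, chr3:81036416-81214040) followed at 3.28 ± 0.583 RPKM, and Pdgfra (ENSMUSG00000029231, chr5:75152292-75198215) at 1.57 ± 0.258 RPKM. By exon length, ranges of these genes over the 3 WT libraries did not overlap. The order was the same in S89G-DMP1 NSCs, at 5.10 ± 0.981, 1.90 ± 0.557 and 0.872 ± 0.123 RPKM (SD, n = 3), again with ranges apart. This order depends on gene length, because the WT means before division by length were 16.1 CPM (Pdgfa), 16.7 CPM (Pdgfc) and 15.7 CPM (Pdgfra). In the authors' TPM (transcripts per 1000000) values the WT means kept this order, at 19.3, 13.5 and 6.33. There the WT ranges of Pdgfa and Pdgfc overlapped, with Pdgfa at 14.5 in replicate 1 and Pdgfc at 16.96 in replicate 2. The rest of the 8 genes were at the limit of detection in NSCs. Pdgfd (ENSMUSG00000032006, chr9:6168584-6378850) had no read in any of the 6 libraries, which allows up to 0.205 CPM (counts per 1000000 reads) over all of them, taking 3 counts as the limit that a count of 0 allows. Such limits and the intervals below cover counting error only. Pdgfrb (ENSMUSG00000024620, chr18:61045150-61085061) had 0, 0 and 0 counts in WT NSC replicates 1, 2 and 3 and 1, 0 and 2 in S89G-DMP1. Rgs5 (ENSMUSG00000026678, chr1:169655501-169695813) had 0, 1 and 0 counts in WT and 2, 0 and 1 in S89G-DMP1, and Des (ENSMUSG00000026208, chr1:75360329-75368579) had 0, 0 and 1 in each genotype. These NSCs therefore gave ligand and PDGFRα transcripts, and no level of PDGFRβ, Rgs5 or desmin that could be compared.

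The astrocyte cultures had another order. By exon length Pdgfrb was highest in both genotypes, at 170 RPKM in WT and 28.9 RPKM in S89G-DMP1. In the WT library Rgs5 (42.2 RPKM), Pdgfd (28.2 RPKM), Pdgfra (13.8 RPKM), Pdgfa (12.4 RPKM), Des (7.97 RPKM), Pdgfb (5.92 RPKM; ENSMUSG00000000489, chr15:79995874-80014977, minus strand) and Pdgfc (5.42 RPKM) came after it. In the S89G-DMP1 library Pdgfd (21.3 RPKM), Pdgfa (20.6 RPKM), Pdgfb (10.2 RPKM) and Pdgfc (7.34 RPKM) came next, and Pdgfra (0.693 RPKM), Rgs5 (0.596 RPKM) and Des (0.314 RPKM) were last. Summed over the ligands the level was 52.0 RPKM in WT and 59.4 RPKM in S89G-DMP1, whereas summed over the receptors it was 183 and 29.5 RPKM. The ratio of Pdgfrb to Pdgfra was 12.3 in WT and 41.6 in S89G-DMP1. With 1 library per genotype, neighbours in these orders have no spread to be judged by, and both the order and the ratios depend on gene length. With the shorter lengths implied by the deposited FPKM values, Pdgfa (58.4 RPKM) and not Pdgfrb (29.2 RPKM) was highest in the S89G-DMP1 library. In the WT library Pdgfrb stayed highest (172 RPKM), and Pdgfra (50.5 RPKM) stood above Pdgfd (36.7 RPKM) and Pdgfa (35.0 RPKM). With these lengths the ratio of Pdgfrb to Pdgfra was 3.40 in WT and 11.5 in S89G-DMP1, the ligands summed to 89.6 and 113 RPKM, and the receptors to 222 and 31.7 RPKM.

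**Figure D1:**
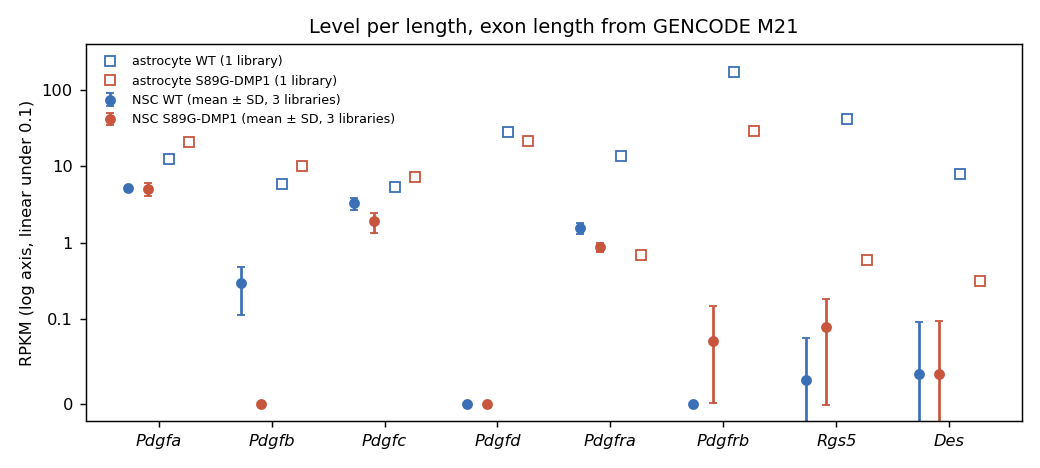
Level of each gene per length (RPKM, log axis that is linear under 0.1) in NSCs (filled, mean ± SD over 3 libraries) and astrocyte cultures (open, 1 library), WT in blue and S89G-DMP1 in red. Pdgfrb was at 170 RPKM in WT astrocytes and had no read in WT NSCs, and Pdgfd had no read in any NSC library.

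The NSC libraries were compared to ask which PDGF genes differ in level between S89G-DMP1 and WT neural stem cells. PDGFRα and its ligand PDGF-C were lower in S89G-DMP1 NSCs, PDGF-A was not called by the test, and PDGF-B was counted only in WT. Pdgfra had 37, 34 and 46 counts in WT replicates 1, 2 and 3 and 24, 18 and 21 in S89G-DMP1. Every S89G-DMP1 library was below every WT library. Mean levels were 15.7 ± 2.58 CPM (WT) and 8.75 ± 1.23 CPM (S89G-DMP1; SD, n = 3), a log2 fold change of -0.84 (SE 0.22, adjusted p = 0.00402 in the quasi-likelihood test of edgeR, corrected over 11194 genes by Benjamini-Hochberg, 95% interval -1.27 to -0.41). Pdgfc had 33, 51 and 41 counts in WT and 26, 15 and 29 in S89G-DMP1, again without overlap. Its levels were 16.7 ± 2.97 CPM (WT) and 9.67 ± 2.83 CPM (S89G-DMP1; SD, n = 3), with a log2 fold change of -0.78 (SE 0.22, adjusted p = 0.00698 by edgeR, 95% interval -1.21 to -0.36).

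Both calls depended on the tool. With DESeq2 the log2 fold changes were -0.84 and -0.79 with adjusted p = 0.0773 for Pdgfra and 0.107 for Pdgfc, and limma on the authors' log2(TPM + 1) values gave adjusted p = 0.129 and 0.204. The edgeR call of Pdgfra held without each library in turn (adjusted p from 0.00301 to 0.0467). That of Pdgfc was lost without WT replicate 2 (log2 fold change -0.64, adjusted p = 0.0755) and without S89G-DMP1 replicate 2 (-0.57, adjusted p = 0.101), its highest and lowest libraries. An exact permutation test of either gene over the 6 libraries gave p = 0.1 (2-sided), the smallest that 3 against 3 can give.

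Pdgfa had 35, 41 and 44 counts in WT and 36, 31 and 48 in S89G-DMP1, and the groups overlapped. Means were 16.1 ± 1.42 and 15.9 ± 3.06 CPM (SD, n = 3). The log2 fold change was -0.01 (SE 0.19, adjusted p = 0.977 by edgeR), and its 95% interval ran from -0.39 to 0.36. Pdgfb had 5, 2 and 2 counts in WT and 0 in each S89G-DMP1 library, too few to pass the filter on low counts. With the limit of 3 reads set over the S89G-DMP1 group, the 9 WT reads gave a 2.90-fold lower level. This ratio takes the WT reads as exact, leaving out their counting error, and 5 of them came from WT replicate 1. The exact permutation test gave p = 0.1 (2-sided), and edgeR without the filter an adjusted p = 0.0384. In the authors' TPM table Pdgfb is listed at 0.376 in S89G-DMP1 replicate 2, where no read was counted.

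In all, 3 of the 8 genes passed the filter on low counts and 2 of them were called lower, beside 8.76% of all tested genes called lower, 7.08% called higher and 15.8% in either direction. All S89G-DMP1 libraries were under all WT libraries in 16% of the tested genes. The median log2 fold change over all tested genes was 0.00. Without the filter, edgeR gave adjusted p = 0.450 for Pdgfrb, 0.662 for Rgs5 and 0.989 for Des.

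**Figure D2:**
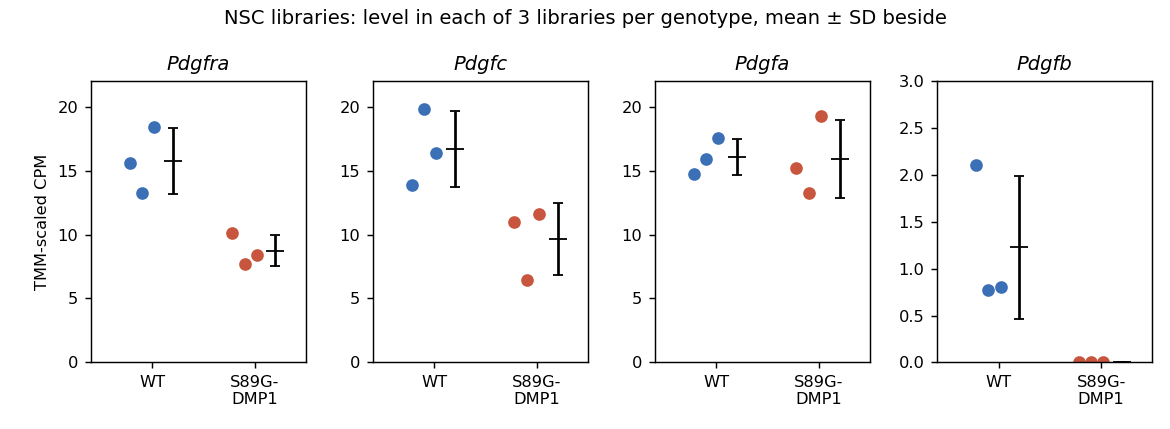
TMM-scaled CPM of Pdgfra, Pdgfc, Pdgfa and Pdgfb in each NSC library (points; 3 WT in blue, 3 S89G-DMP1 in red) with the mean ± SD beside them; the Pdgfb axis has a shorter range. The 3 S89G-DMP1 libraries lie under the 3 WT libraries for Pdgfra, Pdgfc and Pdgfb and overlap them for Pdgfa.

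**Figure D3:**
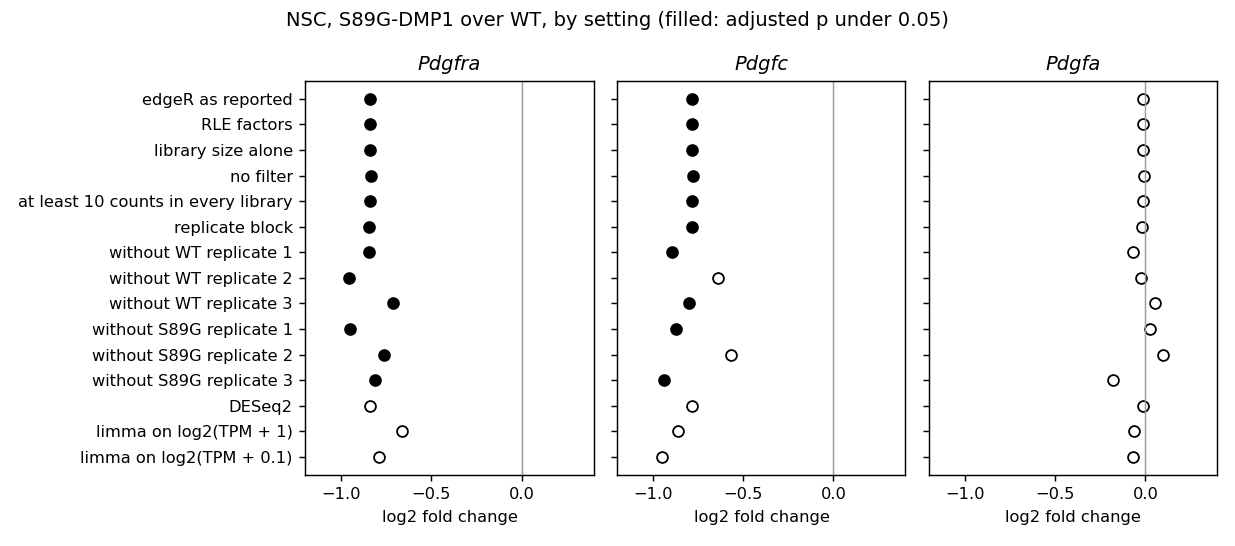
Log2 fold change (S89G-DMP1 over WT) of Pdgfra, Pdgfc and Pdgfa in NSCs under each setting, filled where the adjusted p was under 0.05. Pdgfra and Pdgfc stay under 0 at every setting shown but are open for DESeq2 and limma. Pdgfc is also open without WT replicate 2 and without S89G-DMP1 replicate 2, and Pdgfa lies on either side of 0.

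Pdgfra marks oligodendrocyte precursors, so the other markers of these cells are given beside it. Of 11 tested, 4 were lower in S89G-DMP1 NSCs (36.4%) and 2 higher (18.2%). Over all tested genes 8.76% were lower and 7.08% higher, to be set beside this list and each NSC list below. Cspg4, the NG2 proteoglycan that pericytes also carry, fell by 0.56 on the log2 scale (adjusted p = 1.1e-08 by edgeR), and Lhfpl3 fell by 0.51 (adjusted p = 8.1e-07). The extracellular matrix gene Tnr (-0.42, adjusted p = 0.00448) and the protocadherin Pcdh15 (-0.44, adjusted p = 0.0135) were lower by edgeR, but not by DESeq2 (adjusted p = 0.0770 and 0.148), and Pcdh15 also lost the call without WT replicate 3 (adjusted p = 0.0876) and without S89G-DMP1 replicate 3 (0.0902). The genes called higher were the phosphatase Ptprz1 (0.21, adjusted p = 3.2e-04) and Cacng4 (0.23, adjusted p = 0.0233), named after their values were seen. Cacng4 had no call by DESeq2 (adjusted p = 0.169) and lost it without WT replicate 2 or 3 or S89G-DMP1 replicate 1 or 3 (adjusted p from 0.0543 to 0.0811). Olig2, a transcription factor on this list, had 2555 to 2848 counts in WT and 2713 to 2882 in S89G-DMP1. Sox10, also on the list, had only 7, 5 and 5 counts in WT and 5, 2 and 6 in S89G-DMP1, too few to be tested. Summed over the list the level was 6938 to 7043 CPM in WT and 7233 to 7598 CPM in S89G-DMP1, with a median log2 fold change of -0.08. Most of this sum was 3 genes, named after their values were seen. Their mean levels in WT and S89G-DMP1 were 2498 and 2571 CPM for Olig1, 2511 and 2903 for Ptprz1, and 1106 and 1169 for Olig2. The part of the listed markers in the Pdgfra result was not tested.

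In the same libraries the genes most like Pdgfra across the 6 libraries were Ncam1 (r = 0.996), Igf1r (r = 0.995) and Cachd1 (r = 0.994), by Pearson correlation of log2 CPM among 8082 genes. Those most like Pdgfc were Serinc1 (r = 0.994), Sh3d19 (r = 0.989) and Pcdhb19 (r = 0.985). These values are a description over 6 libraries that share their 2 genotypes, and the genes are the closest of all those searched.

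Genes that process or bind PDGF ligands and receptors had 5 members lower, 1 higher and 3 not called of 9 tested in NSCs (median log2 fold change -0.38). Their shares were 55.6% lower and 11.1% higher, beside 8.76% and 7.08% of all tested genes. Pcsk6, a proprotein convertase that cleaves growth factor precursors, had 72, 80 and 73 counts in WT and 32, 32 and 30 in S89G-DMP1 NSCs. The groups were far apart, with a log2 fold change of -1.21 (SE 0.17, adjusted p = 6.5e-08 by edgeR). Furin, the convertase known for processing PDGF-A and PDGF-B, fell by 0.53 (adjusted p = 3.3e-04). Sparc, a matrix protein that binds PDGF-B, fell by 0.55 (adjusted p = 8.5e-08), and Lrp1, an endocytic receptor that associates with PDGFRβ, fell by 0.38 (adjusted p = 7.8e-08). The fifth was Ptprj, a phosphatase that acts on PDGFRβ (-0.38, adjusted p = 3.9e-04), and the gene called higher was the scaffold Slc9a3r1 (0.34, adjusted p = 0.0137), both named after their values were seen. Slc9a3r1 was not called by DESeq2 (adjusted p = 0.136), without WT replicate 3 (0.0790) or without S89G-DMP1 replicate 2 (0.0772). Plat, the protease that activates PDGF-C, had 697 to 836 counts in WT and 664 to 802 in S89G-DMP1 (adjusted p = 0.688).

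Signal transducers downstream of the receptors were called lower at a share near that of all genes (10.8% against 8.76%). Of 37 tested, 4 were lower and 0 higher by edgeR (6 and 3 at an unadjusted p under 0.05), and the median log2 fold change was -0.01. DESeq2 called 1 lower and 0 higher (5 and 0 unadjusted). Src, the kinase recruited to activated receptors, fell by 0.40 (adjusted p = 1.7e-05 by edgeR, 0.00107 by DESeq2). The adaptor Gab1 (-0.23, adjusted p = 0.0150), the PI3-kinase subunit Pik3ca (-0.23, adjusted p = 0.0307) and the MAP kinase Mapk3 (-0.29, adjusted p = 0.0227) were called by edgeR but not by DESeq2 (adjusted p = 0.127, 0.213 and 0.185). Gab1 lost the call without WT replicate 3 (adjusted p = 0.0691) and without S89G-DMP1 replicate 1 (0.107). Pik3ca lost it without WT replicate 1 or 2 or S89G-DMP1 replicate 1 or 2 (adjusted p from 0.0670 to 0.141), and Mapk3 without WT replicate 2 or S89G-DMP1 replicate 2 or 3 (adjusted p from 0.0657 to 0.152).

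Among the related receptors and their ligands, 3 of 7 tested genes were higher and 1 lower, with a median log2 fold change of 0.25. The shares were 42.9% higher and 14.3% lower, beside 7.08% and 8.76% of all tested genes. Kit, the stem cell factor receptor, lies next to Pdgfra at chr5:75574916-75656722 and had 21, 36 and 26 counts in WT and 16, 8 and 17 in S89G-DMP1. The groups did not overlap, and the log2 fold change was -0.96 (adjusted p = 0.00878 by edgeR), but the call was lost by DESeq2 (adjusted p = 0.121), without WT replicate 2 (0.109) and without S89G-DMP1 replicate 2 (0.102), as it was for Pdgfc. The VEGF receptor Flt1 rose by 1.79 (adjusted p = 0.00136, from 2, 6 and 4 counts to 16, 12 and 13), and Nrp2, a co-receptor of VEGFs and semaphorins, by 0.57 (adjusted p = 3.3e-04). Vegfa was higher by 0.32 (adjusted p = 0.0328 by edgeR, 0.221 by DESeq2) and lost the call without WT replicate 1 or 2 or S89G-DMP1 replicate 1 or 2 (adjusted p from 0.0588 to 0.155).

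In the RGS family, 10 genes other than Rgs5 were tested, of which 2 were lower and 1 higher, with a median log2 fold change of 0.06. Rgs16 had 32, 26 and 38 counts in WT and 8, 9 and 11 in S89G-DMP1, a log2 fold change of -1.72 (SE 0.28, adjusted p = 3.6e-06 by edgeR). Rgs12 fell by 0.38 (adjusted p = 6.8e-04) and Rgs7 rose by 0.41 (adjusted p = 2.2e-04). Among 10 tested partners of desmin and other intermediate filaments, with a median of -0.12, the linker plectin Plec fell by 0.91 (adjusted p = 4.3e-07), the desmin chaperone Cryab fell by 0.75 (adjusted p = 1.7e-04) and the dystrophin gene Dmd rose by 0.75 (adjusted p = 1.3e-09). Vim and Nes, the main filaments of these cells, were at -0.10 and -0.11 (adjusted p = 0.11 and 0.095). None of 17 muscle genes had enough reads in NSCs to be tested.

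The S89G-DMP1 and WT astrocyte cultures were compared by the ratio of single libraries, with no replicate check and no p-value. Both PDGF receptors, Rgs5 and Des were lower in the S89G-DMP1 library by more than 2-fold, whereas the 4 ligands differed by less than 2-fold. Rgs5 had 2431 counts in WT and 39 in S89G-DMP1, or 192 and 2.71 CPM, a 70.9-fold lower level (95% Clopper-Pearson interval 51.7 to 99.9). Des had 379 and 17 counts, 29.9 and 1.18 CPM, 25.4-fold lower (15.6 to 44.0). Pdgfra had 1755 and 100 counts, 139 and 6.94 CPM, 20.0-fold lower (16.3 to 24.7). Pdgfrb had 11765 and 2276 counts, 929 and 158 CPM, 5.88-fold lower (5.62 to 6.15). Pdgfrb thus kept a far larger share of its WT level than Rgs5, Des and Pdgfra, whose intervals all lie above it.

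The ligands differed less. Pdgfb, the ligand of endothelial cells, had 312 counts in WT and 609 in S89G-DMP1, 24.6 and 42.3 CPM, 1.72-fold higher (1.5 to 1.97). Pdgfa had 489 and 927 counts, 38.6 and 64.4 CPM, 1.67-fold higher (1.49 to 1.86). Pdgfc was 1.36-fold higher (349 and 538 counts, interval 1.18 to 1.56), and Pdgfd was 1.33-fold lower (1128 and 966 counts, interval 1.22 to 1.45). The ligand sizes depended on scaling. With library size alone, which moved the median log2 ratio of all counted genes from 0.01 to 0.30, Pdgfa was 2.04-fold and Pdgfb 2.09-fold higher, so that 2 ligands passed 2-fold, and Pdgfd was 1.08-fold lower. The direction of each of the 8 genes was the same under both scalings.

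Of the 8 genes, 4 were lower by at least 2-fold in S89G-DMP1 astrocytes and 0 higher by as much, beside 12.8% lower and 17.3% higher (30.1% in either direction) of the 15680 genes that reached 10 counts in 1 library or the other. By library size alone the background was 9.66% lower and 22.2% higher. Their median log2 ratio was -1.48. In bulk RNA, fewer cells of a type and less RNA per cell cannot be told apart.

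**Figure D4:**
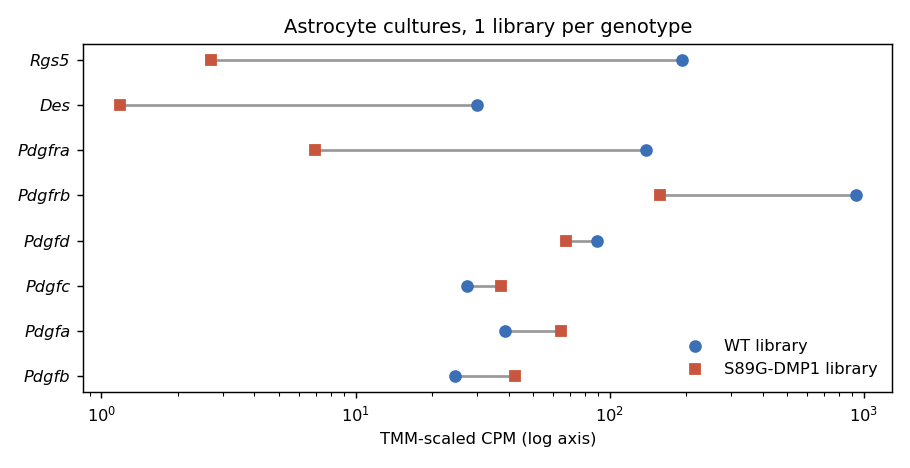
TMM-scaled CPM (log axis) of the 8 genes in the WT (blue circle) and S89G-DMP1 (red square) astrocyte libraries, 1 per genotype. Rgs5 spans 192 to 2.71 CPM, and the 4 ligands lie between 24.6 and 89.1 CPM in both libraries.

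Markers of other cell types differed between the same libraries, and their part in these results was not tested. Over all counted genes 12.8% were at least 2-fold lower and 17.3% higher, to be set beside each astrocyte list here and below. Of 19 counted pericyte markers, 7 were at least 2-fold lower in S89G-DMP1 and 1 higher, with a median log2 ratio of -0.41, and their summed level was 701 CPM in WT and 351 in S89G-DMP1. Those lower were led by transcription factors that meningeal cells also use, Foxf2 (1579 and 42 counts) and Tbx18 (1950 and 210 counts), and by the connexin Gja4 (111 and 2 counts). The surface markers Cspg4 (542 and 555 counts) and Mcam (1422 and 1293 counts) differed by less than 2-fold. Fibroblast markers were 10 lower and 2 higher of 18 counted, with a median log2 ratio of -2.0 and a summed level of 6671 and 2682 CPM. Foxd1 (2878 and 26 counts), Foxc2 (1504 and 24 counts) and Lamc3 (2427 and 69 counts) had the largest ratios among them, and Col1a1 had a log2 ratio of -0.47. Endothelial markers were 6 lower and 2 higher of 12, with a median of -0.85 and a summed level of 1141 and 111 CPM. In WT most of this sum was Eng (11770 counts, and 157 in S89G-DMP1) and Cdh5 (1917 counts, and 23 in S89G-DMP1), whereas in S89G-DMP1 most of it was Slc2a1 (56.7 CPM, and 36.1 in WT) and Slco1a4 (34.1 CPM, and 7.50 in WT), named after their values were seen. Esam had 80 and 15 counts, Pecam1 16 and 7, and Cldn5 was at 0 in both libraries. By library size alone 4 endothelial markers were lower and 2 higher. Smooth muscle markers were 4 lower and 2 higher of 9, with a median of -0.95 (2 lower and 2 higher by library size alone, median -0.66), but their summed level was 2632 CPM in WT and 4173 in S89G-DMP1. Acta2 was higher (9152 and 35539 counts), and Myh11 (402 and 37 counts) and Myocd (61 and 8 counts) were lower. Rgs5 and Des thus differed in direction from Acta2 in these libraries.

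Neural markers had the opposite direction. Astrocyte markers were 11 higher and 1 lower of 14, with a median log2 ratio of 2.96 and a summed level of 549 CPM in WT and 1959 in S89G-DMP1, as in Slc1a3 (8 and 3877 counts) and Mlc1 (2 and 2399 counts). Oligodendrocyte precursor markers were 10 higher and 1 lower of 15, with a median of 2.16 and a summed level of 83.1 and 477 CPM. Olig1 had 4 and 2691 counts, Olig2 3 and 782, and Sox8 43 and 628, so Pdgfra was lower in a library where most other markers of this list were higher. Neural stem cell markers were 6 higher and 0 lower of 11, with a median of 2.66 and a summed level of 1029 and 2396 CPM. Fabp7 had 23 and 4950 counts. Neuron markers were 4 higher and 1 lower of 6 (median 2.01), with Map2 at 105 and 2772 counts, Syt1 at 3 and 69 and Stmn2 at 272 and 1195. Mature oligodendrocyte markers were 3 higher and 1 lower of 6 (median 0.81), with Cnp at 366 and 933 counts and the transcription factor Myrf at 398 and 19. Microglia markers were 3 higher and 1 lower of 11 (median 0.35; 4 higher and 0 lower by library size alone), with a summed level of 904 and 1226 CPM, Cx3cr1 at 320 and 2372 counts, P2ry12 at 37 and 108 and Tmem119 at 1434 and 699.

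**Figure D5:**
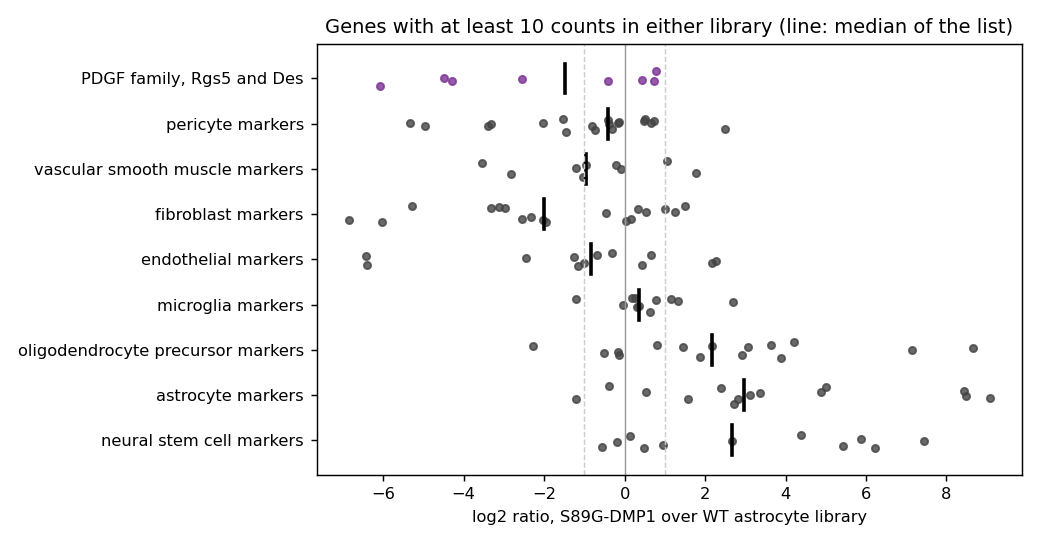
Log2 ratio, S89G-DMP1 over WT, of each counted gene of 9 lists in the astrocyte cultures (points; 1 library per genotype), with the median of each list as a line and 2-fold as dashed lines. The median was -1.48 for the PDGF genes with Rgs5 and Des, -2.0 for fibroblast markers and 2.96 for astrocyte markers.

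The genes around the PDGF pathway were mixed in the astrocyte libraries. Ligand processing and binding genes were 4 higher and 3 lower of 12, with a median log2 ratio of -0.46. Pcsk6, lower in S89G-DMP1 NSCs, had a log2 ratio of 2.12 here (406 and 2011 counts), and the difference between the cell types was not tested. Plau, a protease that activates PDGF-D, was at -1.85 (1463 and 459 counts), and the scaffold Slc9a3r2, which binds PDGF receptors, at -1.70 (1305 and 456 counts). By library size alone 2 of these genes were lower and 4 higher. Receptor signal transducers were 3 higher and 2 lower of 38, with a median of 0.08 (3 higher and 0 lower by library size alone, median 0.37). Pik3cb was at 1.65 and the adaptor Nck2 at 1.29, whereas the phosphatase Ptpn11 was at -1.18 (6898 and 3462 counts), or -0.89 by library size alone. The related receptors and ligands were 5 lower and 3 higher of 14, with a median of -0.80. The lymphatic VEGF receptor Flt4 was at -4.47 (292 and 13 counts), Il34, a ligand of the CSF1 receptor, at -3.40 (901 and 95 counts) and Vegfa at -2.02 (3352 and 936 counts).

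The neighbours of Pdgfra on chromosome 5 did not go with it in astrocytes. Kit had 1 count in WT and 41 in S89G-DMP1, and Kdr (chr5:75932827-75978458, minus strand), named after its values were seen, had 76 and 184. Next to Rgs5 on chromosome 1 lies Rgs4 (chr1:169741477-169747642, minus strand), which had 353 counts in WT and 26 in S89G-DMP1, a log2 ratio of -3.84 in the direction of Rgs5. The whole RGS family without Rgs5 was 5 higher and 3 lower of 18, with a median of 0.15 (5 higher and 2 lower by library size alone, median 0.44). Rgs8 (30 and 1114 counts) and Rgs6 (13 and 158 counts) were among the higher ones. Partners of desmin and other filaments were 5 lower and 2 higher of 14, with a median of -0.30, but 3 lower and 3 higher by library size alone, with a median of -0.01. Synm, whose product synemin assembles with desmin, was at -2.56 (1540 and 296 counts), Gfap at 3.11 and the dystrobrevin Dtna at 2.44 (277 and 1717 counts). Muscle genes were 2 higher and 2 lower of 7 counted (2 and 1 by library size alone), with a median of -0.23 (0.04 by library size alone) and a summed level of 11.5 and 13.7 CPM, and 7 of the 17 listed, Myod1 and Myog among them, were at 0 in both libraries. Myh8 (1 and 70 counts) had the largest ratio of these.

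Marker lists in the NSC libraries gave little signal of the vessel wall. Of 22 pericyte markers only 5 had enough reads to be tested, of which 2 were lower and 1 higher (median -0.12), with a summed level of 302 to 316 CPM in WT and 245 to 282 in S89G-DMP1. Mcam, an adhesion molecule, fell by 1.01 (adjusted p = 3.3e-07 by edgeR), Cspg4 is given above, and the transcription factor Zic1 rose by 1.15 (adjusted p = 8.9e-10). Abcc9, Vtn, Higd1b, Cox4i2, Atp13a5 and Tbx18 had no read in any NSC library. Of 2 tested smooth muscle genes Mylk was higher (0.41, adjusted p = 0.00299 by edgeR, 0.0540 by DESeq2; list median 0.21, summed 113 to 126 CPM in WT and 136 to 141 in S89G-DMP1). Of 4 tested fibroblast genes, with a median of -0.35 and a summed level of 245 to 266 CPM in WT and 151 to 158 in S89G-DMP1, Thy1, which neurons also express, fell by 1.12 (adjusted p = 7.7e-18), and Prrx1 was lower by edgeR (-0.34, adjusted p = 0.0259) but not by DESeq2 (0.208), nor without WT replicate 3 or S89G-DMP1 replicate 1 or 2 (adjusted p from 0.0701 to 0.146). The single endothelial gene (log2 fold change 0.09) and the single microglia gene (-0.60) with enough reads were not called.

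The neural lists in NSCs were counted the same way. Astrocyte markers had 6 higher and 0 lower of 12 tested by both edgeR and DESeq2, with a median of 0.27. At an unadjusted p under 0.05, edgeR gave 9 and 0. Called higher by limma were 3 on log2(TPM + 1) and 2 on log2(TPM + 0.1). The edgeR share was 50% higher, beside 7.08% of all tested genes. Their summed level was 2179 to 2238 CPM in WT and 2922 to 3005 in S89G-DMP1. Slc4a4 rose by 1.27 (adjusted p = 1.1e-18), Aldh1l1 by 1.03 (5.8e-25), Gja1 by 0.91 (4.8e-07) and Mlc1 by 0.71 (2.4e-14), each by edgeR. Neural stem cell markers had 4 higher and 1 lower of 11 (median 0.10). Fabp7 rose by 0.56 (adjusted p = 2.2e-14) and Egfr by 0.18 (0.00823), whereas Vcam1 (1.15, adjusted p = 0.00411) and Dlx1 (-1.42, adjusted p = 0.00735) lost the call by DESeq2 (0.0763 and 0.108) and without S89G-DMP1 replicate 2 (0.0513 and 0.0899). Neuron markers had 1 higher and 2 lower of 7 (median 0.11). Syt1 had 144, 169 and 146 counts in WT and 12, 22 and 21 in S89G-DMP1 (log2 fold change -3.00, adjusted p = 1.3e-23), and Elavl3 fell by 0.43 (adjusted p = 0.00182). Elavl4 was at 0.35 (adjusted p = 0.0267 by edgeR, 0.213 by DESeq2) and lost the call without WT replicate 2 or 3 or S89G-DMP1 replicate 2 or 3 (adjusted p from 0.0684 to 0.205). Of 4 tested mature oligodendrocyte markers (median 0.20), Ugt8a was higher by edgeR (1.19, adjusted p = 0.00470) but not by DESeq2 (0.0854).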

How the data were processed

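Gene expression was measured by RNA sequencing in 8 samples, 3 WT and 3 S89G-DMP1 NSC libraries and 1 WT and 1 S89G-DMP1 astrocyte library. The authors deposited raw counts per gene for both cell types, TPM values for NSCs and FPKM values for astrocytes. Low-quality reads and those with adapters or undetermined bases had been removed. The submitters' processing notes name HISAT2, StringTie, featureCounts and GRCm38 for NSCs, and Bowtie2 2.0.6 and TopHat2 2.0.9 for astrocytes, whose build and counter are not given in the sources used here. The deposited FPKM values divide counts by the library total and by 1 length per gene. Samples were grouped by their labels, and no sample was left out.

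For NSCs, genes with low counts were removed by filterByExpr, TMM factors were applied and genotypes were compared in edgeR 4.0.16 (quasi-likelihood, genotype as the only term, R 4.3.3), called at an adjusted p under 0.05. DESeq2 1.42.0 and limma 3.58.1 on log2(TPM + 1) and log2(TPM + 0.1) were alternatives. Astrocyte libraries were compared without a test, by the log2 ratio of CPM after TMM scaling (prior count 2), where a gene reached 10 counts in at least 1 library. Lengths and positions came from GENCODE M21 (GRCm38), and exact permutation tests used scipy 1.17.1.

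The genes and the 16 lists were chosen with earlier results of these data known. Named genes were all 8 members and, from each list, the genes called in NSCs where at most 5 were called, otherwise the 4 with the largest change, and the 3 with the largest ratio in astrocytes among those with at least 50 counts. For each member called in NSCs the 3 most similar genes were named, among those whose mean count was at least 50. Calls were also made with other scaling, filters and single libraries left out. Some genes that this rule selects are not reported here.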

Additional observations from a re-analysis of the deposited data

Results flagged for a closer look

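Both ligands that follow were chosen because their direction differed between the cell types, and the difference between the cell types was not tested. Pdgfb had a log2 ratio of 0.78 in the astrocyte libraries, while all 3 S89G-DMP1 NSC libraries lay below all 3 WT libraries. Pdgfc had a log2 ratio of 0.44 in the astrocyte libraries, while its NSC libraries were likewise lower in S89G-DMP1 without overlap. The astrocyte side rests on 1 library per genotype, and the NSC side of Pdgfb on 9 reads.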

How the results depend on the processing

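In NSCs, edgeR called 792 genes higher and 981 lower, DESeq2 348 and 503, limma on log2(TPM + 1) 38 and 107, and limma on log2(TPM + 0.1) 31 and 85. Leaving out 1 library gave 571 to 733 higher and 770 to 926 lower. Of the PDGF genes, edgeR called 2, DESeq2 and both limma fits 0, and the fits without 1 library 1 or 2. At an unadjusted p under 0.05, DESeq2 and both limma fits gave 2. Pdgfra was at -0.84 with DESeq2 and at -0.66 and -0.79 with limma (adjusted p = 0.0773, 0.129 and 0.166), and between -0.96 and -0.71 without 1 library. Pdgfc was at -0.79 with DESeq2 and at -0.86 and -0.95 with limma (adjusted p = 0.107, 0.204 and 0.218), and between -0.94 and -0.57 without 1 library. Pdgfa turned its sign, from -0.18 to 0.10 without 1 library (0.06 without WT replicate 3, 0.02 without S89G-DMP1 replicate 1, 0.10 without S89G-DMP1 replicate 2). The cause of these differences between tools was not tested.

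The replicate numbers did not pair the libraries. Correlations of deviations between libraries with the same number were 0.0546, 0.0137 and 1.4e-04, and with the replicate number as a block edgeR called 829 genes higher and 1016 lower, Pdgfra at -0.85 (adjusted p = 0.00288) and Pdgfc at -0.78 (adjusted p = 0.00522).

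In astrocytes, 2713 genes were at least 2-fold higher and 2010 lower as first compared, and 3487 and 1515 by library size alone. Where 10 counts were required in both libraries, a filter that tests fewer genes, 1591 were higher. On the log2(FPKM + 1) scale 1020 were lower. The last 2 counts come from different settings and do not form a pair. Of the 8 genes, 2 were at least 2-fold higher by library size alone, 1 by log2(FPKM + 1) and 2 by log2(FPKM + 0.1). By these settings, in that order, the log2 ratio was 1.03, 1.01 and 1.03 for Pdgfa, 0.73, 0.67 and 0.72 for Pdgfc, -0.12, -0.11 and -0.12 for Pdgfd, -4.00, -3.62 and -3.98 for Pdgfra, and -2.26, -2.23 and -2.26 for Pdgfrb. Pdgfb was at 1.07 by library size and 1.06 by log2(FPKM + 0.1), and by log2(FPKM + 1) Rgs5 was at -5.02 and Des at -3.32. In the NSC libraries every member except Pdgfa, Pdgfc and Pdgfra had too few counts to pass the filter, and these 3 had 15 to 51 counts per library.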
